A study of Mus musculus with 6 samples.

Results

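The genes described here are 8 genes of hepatic stellate cells, chosen by name: Lrat, Reln, Ecm1, Des, Acta2, Tagln, Vipr1 and Pdgfrb, out of 55802 distinct gene symbols in the count files. Each symbol stood on 1 row, and all 8 passed the filter on low counts that left 17662 genes for testing. They were measured by RNA sequencing of liver. All mice were C57BL/6 males, kept until 71 weeks: 3 libraries represent normal chow (control) and the other 3 a chow with polystyrene microplastic (PS-MP). The labels name no transgene or other agent for either group and state neither particle size nor dose. The series asks how prolonged PS-MP exposure affects gene expression in the liver. Libraries held 68357478 to 112566641 counts. Nothing in the labels ties each replicate to an animal of its own, and the p-values speak only to the spread among these libraries, which may be technical.

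Stellate cells lie between hepatocytes and the sinusoidal endothelium and hold most of the vitamin A of the body as retinyl esters in lipid droplets. In a healthy liver they are quiescent. On injury they can lose their retinoid stores, take on contractile and secretory features of myofibroblasts and lay down matrix, a change that is read in part from smooth muscle actin (Acta2) and from signalling through the platelet-derived growth factor (PDGF) receptor. The genes are not equally specific: Acta2, Tagln and Des are also genes of vascular smooth muscle, Ecm1 is also made by hepatocytes, and the receptor gene Vipr1 is used by several cell types.

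The promoters of 3 of the genes are shown because their levels varied in different ways over the libraries: Acta2 had the largest difference between diets, Lrat was lowest in a control library and highest in a PS-MP library, and Reln was steadier. They are the 250 bases before the RefSeq start site, in build GRCm38.p6, an earlier build than the GRCm39 of the submitters' processing notes. The RefSeq table held 6 of the 8 genes, without Tagln and Pdgfrb. In Acta2 the capitals mark matches to the CArG box, the element bound by serum response factor in smooth muscle promoters (CC, 6 bases of A or T, then GG), with up to 1 mismatch in its 6 inner bases. In Lrat they mark TATAA, and in Reln GGGCGG, which is bound by Sp1-type factors. All motifs were searched on both strands.
Acta2, chr19:34255374-34255623, minus strand: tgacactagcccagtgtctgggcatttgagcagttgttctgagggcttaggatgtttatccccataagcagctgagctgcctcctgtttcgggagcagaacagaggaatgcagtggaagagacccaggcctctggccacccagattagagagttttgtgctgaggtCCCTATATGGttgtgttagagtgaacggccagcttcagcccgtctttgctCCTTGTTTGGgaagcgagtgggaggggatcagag
Lrat, chr3:82903975-82904224, minus strand: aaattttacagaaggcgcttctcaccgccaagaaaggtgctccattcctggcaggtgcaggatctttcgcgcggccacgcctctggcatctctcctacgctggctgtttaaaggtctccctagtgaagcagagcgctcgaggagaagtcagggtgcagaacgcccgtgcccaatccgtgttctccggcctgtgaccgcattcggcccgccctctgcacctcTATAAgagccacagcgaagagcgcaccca
Reln, chr5:22344706-22344955, minus strand: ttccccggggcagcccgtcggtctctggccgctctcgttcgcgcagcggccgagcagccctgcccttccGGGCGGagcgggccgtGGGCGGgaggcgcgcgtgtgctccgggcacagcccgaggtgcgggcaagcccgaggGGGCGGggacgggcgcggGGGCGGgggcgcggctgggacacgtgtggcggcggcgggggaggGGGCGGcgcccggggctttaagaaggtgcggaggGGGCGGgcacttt

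Acta2 held 2 CArG matches with 1 mismatch each, CCCTATATGG from 84 to 75 and CCTTGTTTGG from 34 to 25 bases before the listed start. Such a match stood in 8.59% of 32851 promoter windows of the same length, also in Lrat (1 match) and not in the windows of Reln, Ecm1, Des or Vipr1. A CArG box without mismatch was in 1.47% of windows and in none of the 6. TATAA stood 29 to 25 bases before the start of Lrat and was in 22.8% of windows. It also stood 27 to 23 bases before the start of Ecm1. Reln held 6 copies of GGGCGG (32.7% of windows hold at least 1), and its window was 80.0% G and C, above 98.8% of all windows. Vipr1 held 3 copies of GGGCGG, Des 2, Lrat and Ecm1 1 each, and Acta2 0. These matches are descriptions of sequence, not of binding.

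None of the 8 genes passed the test between the diets. By the quasi-likelihood test of edgeR with p adjusted over all 17662 genes, 0 of the 8 were called (background 0.0113% of genes tested, 2 genes), and the lowest adjusted p was 0.923. At an unadjusted p under 0.05, 0 of the 8 passed where 5.38% of all genes did. DESeq2 also called 0 of the 8 (background 1.06%; 1 at an unadjusted p under 0.05, Acta2, where 6.27% of all genes were), and limma-voom called 0 (background 0.00566%). Log2 fold changes, given throughout as PS-MP minus control, were above zero for 4 genes and below zero for 4 (7 and 1 when scaled by library size alone, which moves the median of all genes up by 0.21). Their median was 0.01 beside 0.02 over all genes tested, of which 52.8% lay above zero. The levels of the diets overlapped for all 8 genes, whereas 11.2% of all genes tested had diets that did not overlap (6.24% higher and 4.99% lower with PS-MP).

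**Figure D1:**
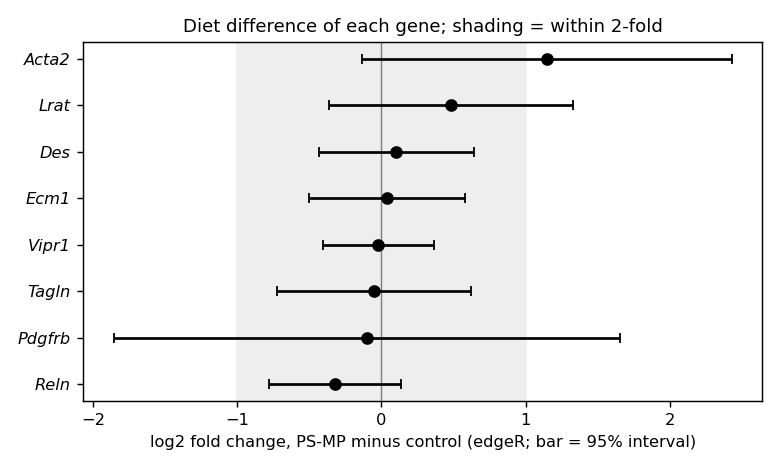
Log2 fold change (PS-MP minus control, x axis) of each of the 8 genes (y axis), with its 95% confidence interval from edgeR as a bar; shading spans a 2-fold change in either direction. Every interval crosses zero, 5 lie inside the shading, and those of Acta2, Lrat and Pdgfrb reach beyond it.

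How large a difference the libraries leave room for varied by gene. The 95% interval lay inside a 2-fold change for 5 of the 8 genes (Reln, Ecm1, Des, Tagln and Vipr1), as it did for 53.6% of all genes tested. For Acta2, Lrat and Pdgfrb a 2-fold difference was not excluded at this spread. Per length, in CPM (read counts scaled to library size, here with the TMM factors of edgeR) per kilobase of the longest coding transcript in GENCODE M21, the order of the mean levels was Ecm1 (47.5), Vipr1 (9.94), Reln (4.44), Lrat (2.42), Tagln (2.40), Des (2.06), Acta2 (1.371) and Pdgfrb (1.075). The libraries of Ecm1 (36.4 to 62.5), Vipr1 (8.69 to 11.8) and Reln (3.35 to 5.79) did not overlap each other, while from Reln downward the ranges of neighbouring genes overlapped.

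The CPM of the 8 genes summed to 272, 189 and 212 in control replicates 1 to 3 and to 223, 207 and 233 in PS-MP replicates 1 to 3. The control mean of 224 ± 42.9 and the PS-MP mean of 221 ± 13.2 (SD, n = 3) differed by less than the spread between replicates. Ecm1 supplied 36.5% to 44.5% of each sum, and Ecm1, Reln and Vipr1 together 82.1% to 89.8%, so the sum says little about the 5 less abundant genes. In bulk liver RNA, fewer stellate cells and less RNA per cell cannot be told apart. Several library measures did not overlap between the diets. The TMM factors were 0.891 to 0.957 on normal chow against 1.04 to 1.11, the genes detected 23042 to 23791 against 24004 to 24763, and 18S ribosomal RNA took 1.15% to 11.2% of counts on normal chow and 0.387% to 1.14% in PS-MP. With ribosomal and mitochondrial RNA genes removed before scaling, the log2 fold changes were 1.16 for Acta2, 0.48 for Lrat and -0.32 for Reln, as large as with them.

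**Figure D2:**
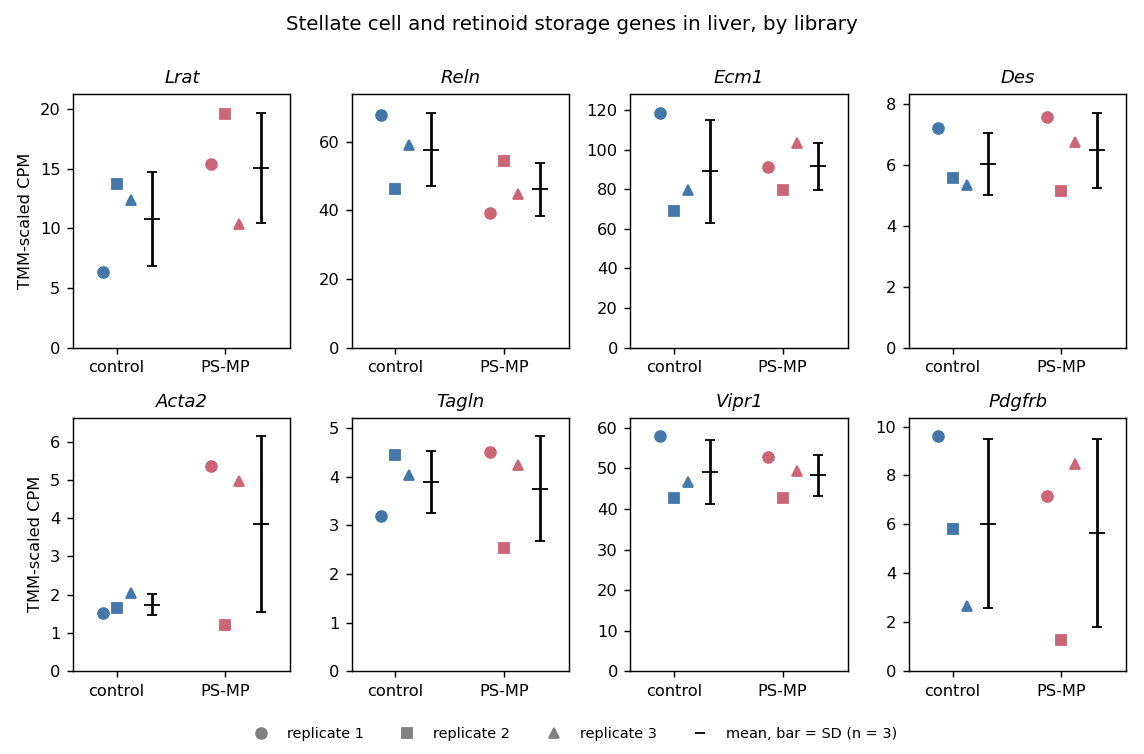
TMM-scaled CPM (y axis, from 0) of the 8 genes in each library, by diet (x axis); symbols mark the replicate number and black bars the mean and SD of 3 libraries. The diets overlap for every gene, and PS-MP replicate 2 (square) is low for Acta2, Tagln and Pdgfrb and high for Lrat.

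Lrat encodes lecithin retinol acyltransferase, which makes the retinyl esters that stellate cells store. Its level was 6.31, 13.7 and 12.4 CPM on normal chow and 15.3, 19.5 and 10.3 CPM on PS-MP chow. Control replicate 1 was the lowest of the 6 libraries, and the other control libraries lay within the PS-MP range. The means were 10.8 ± 3.93 and 15.1 ± 4.60 CPM (SD, n = 3), and the log2 fold change was 0.48 (95% interval -0.36 to 1.33, edgeR adjusted p = 0.990). It was 0.21 when control replicate 1 was left out and 0.25 when PS-MP replicate 2 was.

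Among 13563 other tested genes with established names, the one whose levels over the 6 libraries lay nearest to Lrat was Lpl, the gene of lipoprotein lipase. After centring each gene on its mean, their log2 CPM differed by a root mean square of 0.05. Lpl stood at 7.75, 18.2 and 15.6 CPM on normal chow and at 19.0, 25.4 and 14.1 CPM on PS-MP chow, the same order of the 6 libraries as for Lrat. It was not called either (log2 fold change 0.49, edgeR adjusted p = 0.987). The next nearest were Cmc1 (0.11), Col23a1, Pms1 (0.12 each) and Cand2 (0.13). With so many genes and 6 libraries, near neighbours are found for many patterns, and this is a description.

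Reln encodes reelin, a large secreted glycoprotein known from neuronal migration that in liver is a stellate cell product. Its level was 67.8, 46.4 and 59.1 CPM on normal chow and 39.2, 54.5 and 44.8 CPM on PS-MP chow. The lowest libraries were PS-MP replicates 1 and 3, and PS-MP replicate 2 lay within the control range. The log2 fold change was -0.32 (95% interval -0.78 to 0.14, edgeR adjusted p = 0.963), from 57.8 ± 10.8 to 46.2 ± 7.74 CPM (SD, n = 3). Of the reelin receptors, Vldlr was measured at 7.12, 4.89 and 9.32 CPM on normal chow and 13.6, 15.3 and 4.19 CPM on PS-MP chow, which overlap (log2 fold change 0.63, edgeR adjusted p = 0.9998), while the receptor gene Lrp8 and the adaptor gene Dab1 had at most 16 and 17 counts in a library and were not tested.

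Ecm1 encodes extracellular matrix protein 1, described in liver as a keeper of transforming growth factor beta (TGF-beta) in its latent form. It stood at 119, 69.1 and 79.6 CPM on normal chow and at 91.4, 79.6 and 104 CPM on PS-MP chow. All PS-MP libraries lay within the control range (log2 fold change 0.04, 95% interval -0.50 to 0.58). Vipr1, the receptor gene for vasoactive intestinal peptide, was the steadiest of the 8, at 57.9, 42.6 and 46.6 CPM on normal chow and 52.8, 42.8 and 49.4 CPM on PS-MP chow (log2 fold change -0.02, 95% interval -0.40 to 0.36). Its highest library was 1.36 times its lowest. The gene of the peptide, Vip, had 0 counts in every library, which allows up to 3 counts (0.0493 CPM in control replicate 2, where that limit is highest), and the second receptor gene Vipr2 had 4 counts, all in PS-MP replicate 3. Such limits cover counting error only.

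Des encodes desmin, the intermediate filament of muscle that also marks rodent stellate cells. Its level was 7.20, 5.55 and 5.32 CPM on normal chow and 7.55, 5.13 and 6.74 CPM on PS-MP chow. Both diets spanned nearly the same range (log2 fold change 0.10, 95% interval -0.43 to 0.64). Vim, the gene of the related filament vimentin, had 16.4 to 24.9 CPM on normal chow and 21.7 to 23.7 CPM on PS-MP chow.

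Acta2, the gene of alpha smooth muscle actin, had the largest log2 fold change of the 8, not past the test, and split the PS-MP libraries. Counts were 110, 100 and 216 on normal chow and 441, 107 and 426 on PS-MP chow, or 1.51, 1.64 and 2.04 CPM and 5.35, 1.21 and 4.97 CPM. PS-MP replicates 1 and 3 lay above every control library, and PS-MP replicate 2 below every one. Means were 1.73 ± 0.275 and 3.85 ± 2.29 CPM (SD, n = 3), and the log2 fold change was 1.15 (95% interval -0.13 to 2.43, SE 0.54), with an edgeR adjusted p of 0.923. Without PS-MP replicate 2 the log2 fold change was 1.57, and the edgeR adjusted p was 0.752 (unadjusted 0.000786). In that fit 4.33% of all genes had an unadjusted p under 0.05. The library left out there was the one lowest for Acta2, so its small unadjusted p is no support. With any other library left out the log2 fold change was 0.84 to 1.29 (edgeR unadjusted p 0.101 to 0.205). The adjusted p of Acta2 was 0.506 or higher under every alternative.

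Tagln, which encodes the actin-binding protein transgelin (SM22 alpha) of smooth muscle, did not share the high levels of Acta2. It stood at 3.20, 4.45 and 4.04 CPM on normal chow and at 4.50, 2.53 and 4.24 CPM on PS-MP chow. PS-MP replicate 2 was again the lowest library, but PS-MP replicates 1 and 3 lay near the control libraries (log2 fold change -0.05, 95% interval -0.73 to 0.62). The ratio of Acta2 to Tagln CPM, which does not depend on scaling, was 0.474, 0.369 and 0.506 on normal chow and 1.19, 0.480 and 1.17 on PS-MP chow. The value of Tagln carries an uncertainty of counting. In GENCODE M21 its exons overlap those of the antisense gene Gm48529 and of Pcsk7 on the opposite strand, 48.3% of its windows of 50 bases recur in transcripts of other genes, and the strand setting of the counting is not given. Gm48529 had 2.78 to 3.05 CPM on normal chow and 3.57 to 4.58 CPM on PS-MP chow. Of the other genes, Des shared 5.81% of such windows, Reln 1.30% and Acta2 0.352%, and Lrat, Ecm1, Vipr1 and Pdgfrb shared none.

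Other smooth muscle genes were read beside Acta2. Of 24 genes on a list of the contractile apparatus, 23 were tested, 17 had a log2 fold change above zero and 6 below, and the median was 0.15 beside 0.02 over all genes. Of the 17, Cnn1 and Actg2 passed the low-count filter only through the PS-MP libraries, so their direction was fixed by that choice. Neither the count nor the median, which include both genes, is support. With edgeR 0 passed in either direction, and 2 had an unadjusted p under 0.05, Tpm1 below zero and Cnn1 above. The p of Cnn1 is subject to the same filter choice and is no support either. Cnn1, the gene of smooth muscle calponin, had 0, 5 and 6 counts on normal chow and 37, 18 and 52 on PS-MP chow, and was not called (edgeR adjusted p = 0.805). Tpm1, a tropomyosin gene, was 20.0 to 21.9 CPM on normal chow and 16.3 to 17.5 CPM on PS-MP chow (log2 fold change -0.31, edgeR adjusted p = 0.910).

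Within the PS-MP diet, Acta2 was highest in replicate 1 and lowest in replicate 2, and 8 of the 23 tested genes of the list had that order. How many of all genes had it was not computed. PS-MP replicate 2 was the lowest of its diet for 13 of the 23 and the highest for 4 (Cnn2, Tpm1, Actn1 and Itga8). Over all genes tested it was the lowest for 33.5% and the highest for 37.0%. Replicate 3 was the lowest for 7 of the 23, Mylk and Synpo2 among them, beside 35.1% of all genes tested. Actg2, Myh11 and Myl9 are among the 8 with the order of Acta2, and Myh11 and Myl9 were chosen after their values were seen. Actg2, the enteric smooth muscle actin gene, had 13, 8 and 0 counts on normal chow and 47, 18 and 36 on PS-MP chow. Myh11, the smooth muscle myosin heavy chain gene, stood at 1.96, 2.94 and 2.76 CPM on normal chow and 4.78, 2.51 and 3.34 CPM on PS-MP chow (log2 fold change 0.47, edgeR adjusted p = 0.982). Myl9, a myosin light chain gene, had 1.35, 1.72 and 1.92 CPM against 3.25, 1.33 and 2.48 CPM (log2 fold change 0.50, edgeR adjusted p = 0.987). Of the actin genes closest to Acta2, Acta1 of skeletal muscle had 0 counts in every library and Actc1 at most 11, and the abundant cytoplasmic Actb stood at 376 to 422 CPM on normal chow and 285 to 312 CPM on PS-MP chow (log2 fold change -0.41, edgeR adjusted p = 0.805).

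**Figure D3:**
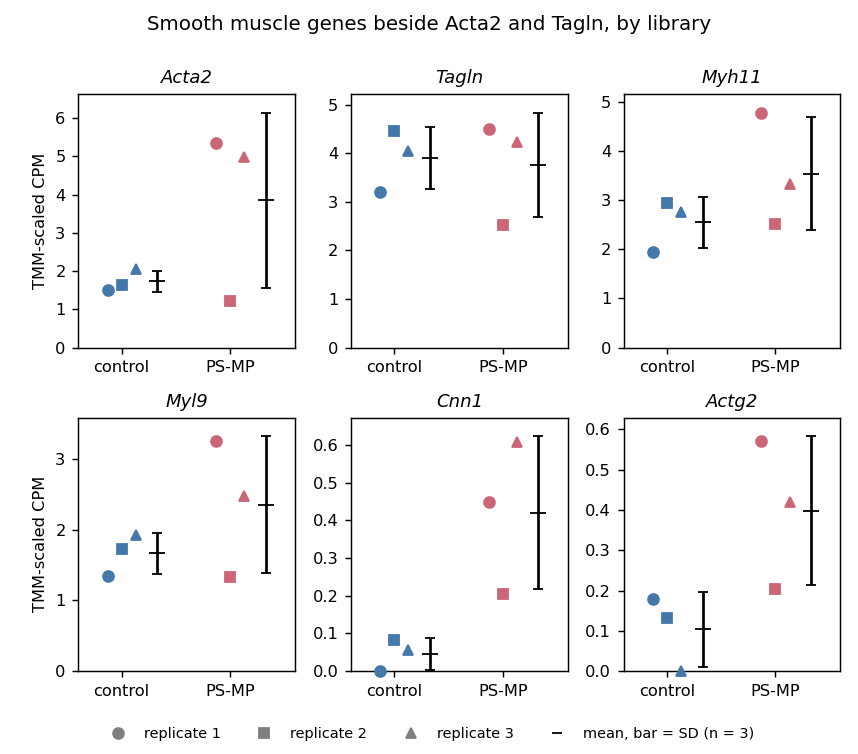
TMM-scaled CPM (y axis, from 0) of Acta2, Tagln and 4 further smooth muscle genes in each library, by diet (x axis), with the mean and SD of 3 libraries in black. PS-MP replicate 2 (square) is the lowest PS-MP library in all 6 plots, which follows in part from which genes were chosen. It was the lowest for 13 of the 23 tested genes of the contractile list and for 33.5% of all genes tested. The list genes highest in it (Cnn2, Tpm1, Actn1 and Itga8) are not plotted. Of the list, Cnn1 and Actg2 passed the low-count filter only through the PS-MP libraries, so their direction between the diets was fixed by that choice. The high PS-MP replicates 1 and 3 of Acta2 are not matched in Tagln.

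Markers of other cells that a piece of liver could hold were read beside Acta2. On the portal fibroblast list (13 genes, 11 tested, 9 above zero), the summed level was 49.9 to 55.5 CPM on normal chow. It was 57.1 to 62.9 CPM on PS-MP chow, highest in PS-MP replicate 2. Gas6, which is not confined to these cells, made up 69.2% of it, and without Gas6 the diets overlapped. The other 12 genes summed to 14.2, 19.3 and 14.6 CPM on normal chow and 19.3, 17.6 and 20.2 CPM on PS-MP chow. PS-MP replicate 2 was then the lowest of its diet. The mesothelium list had 10 genes, 9 tested and 7 above zero, with 1 at an edgeR unadjusted p under 0.05 and 0 called. Less Krt8 of hepatocytes and bile ducts, it summed to 2.12, 10.1 and 3.13 CPM on normal chow. On PS-MP chow the sums were 8.41, 7.10 and 6.88 CPM, and the diets overlapped, as they did with Krt8. Kupffer cell markers summed to 140 to 186 CPM on normal chow and 213 to 242 CPM on PS-MP chow. All 10 genes were tested and above zero, 3 had an edgeR unadjusted p under 0.05, and 0 were called. Over all genes tested, 5.38% had such a p and 52.8% lay above zero. Red cell genes (6 genes, 5 above zero, 2 at an unadjusted p under 0.05, 0 called) summed to 263 to 504 CPM on normal chow and 571 to 848 CPM on PS-MP chow. The diets overlapped in the sums of sinusoidal endothelium (9 of 10 above zero), cholangiocytes (4 of 7 tested) and lymphocytes (7 of 10). They also did for hepatocytes (7 of 10) and adipocytes (2 of 7 tested, 3 at an edgeR unadjusted p under 0.05, 0 called). Of 8 skeletal muscle genes, 6 had 0 counts in every library, Mb had 3 counts in all, and Mylpf made up the rest of a sum of 0.437 to 0.706 CPM. The part of these cells in the level of Acta2 was not tested.

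The tested genes nearest to Acta2 over the 6 libraries were less near than those of Lrat. They were Aoc3, the vascular amine oxidase gene (root mean square difference 0.24), Kif3c (0.28), Rdh16f1 (0.35), Pik3r6 (0.35) and Prkar1b (0.37). Aoc3 was measured at only 0.0821 to 0.339 CPM. Each was higher in PS-MP replicates 1 and 3 than in PS-MP replicate 2, which their choice by nearness to Acta2 had fixed. None was called (adjusted p at least 0.923 with edgeR). Acta2 had a wider within-diet spread than Lrat (log2 SD 0.86 against 0.54), and the distance is not scaled for it.

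Pdgfrb encodes the beta receptor for PDGF, a driver of stellate cell growth and migration and a general marker of mural cells. It varied most of the 8 genes, at 9.60, 5.83 and 2.68 CPM on normal chow and 7.16, 1.26 and 8.47 CPM on PS-MP chow. The highest library was 7.63 times the lowest, and both diets held high and low libraries. Its spread within diets, an SD of 1.25 on the log2 scale, was wider than that of 93.6% of the genes tested, and the interval of its log2 fold change ran from -1.85 to 1.65 around -0.10. Pdgfra, the other receptor gene, lay between 6.01 and 9.65 CPM, so the ratio of Pdgfrb to Pdgfra ranged from 0.168 in PS-MP replicate 2 to 1.41 in PS-MP replicate 3. Among the 6 genes of PDGF ligands and receptors besides Pdgfrb, edgeR called 0 (also 0 by an unadjusted p under 0.05), and 2 lay above zero and 4 below. The ligand gene Pdgfb was 0.662 to 1.17 CPM on normal chow and 0.838 to 1.31 CPM on PS-MP chow.

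PS-MP replicate 2 was the lowest PS-MP library for 6 of the 8 genes (Ecm1, Des, Acta2, Tagln, Vipr1 and Pdgfrb) and the highest for the other 2, Lrat and Reln. Over all genes tested it was the lowest for 33.5% and the highest for 37.0%. In control, replicate 1 was the highest for 5 genes (Reln, Ecm1, Des, Vipr1 and Pdgfrb) and the lowest for Lrat, Acta2 and Tagln, beside 34.0% and 32.2% of all genes tested. The ratio of Lrat to Acta2 CPM was 4.16, 8.33 and 6.05 on normal chow and 2.87, 16.1 and 2.08 on PS-MP chow, so the PS-MP libraries lay on both sides of the control range. Within-diet spreads of Vipr1, Reln, Des, Ecm1 and Tagln were near or below the middle of all genes (wider than 23.1% to 53.4% of them), while those of Lrat and Acta2 were wider than 70.8% and 86.5%.

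**Figure D4:**
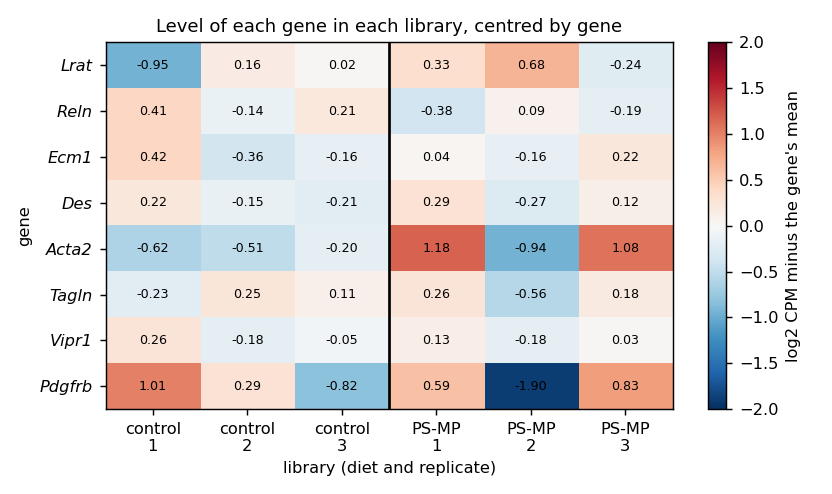
Log2 CPM of each of the 8 genes (rows) in each of the 6 libraries (columns), minus the mean of the gene, with the value printed in each cell; the black line parts the diets. Acta2 is above its mean only in PS-MP replicates 1 and 3, and Pdgfrb ranges from 1.01 in control replicate 1 to -1.90 in PS-MP replicate 2.

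Other genes typical of stellate cells were measured too, with no call between diets. All 21 on the list were tested, 10 above zero and 11 below, with a median log2 fold change of -0.05. With edgeR 0 passed, also at an unadjusted p under 0.05, and 18 of 21 intervals lay inside 2-fold. Dcn, the gene of the matrix proteoglycan decorin, stood at 192 ± 14.0 CPM on normal chow and 178 ± 38.4 CPM on PS-MP chow (SD, n = 3), Steap4 at 65.2 ± 11.5 and 61.1 ± 15.9 CPM, and Colec11, a collectin gene chosen after its values were seen, at 43.3 ± 4.96 and 40.6 ± 4.15 CPM. These markers were present in every library, and the hepatocyte list, led by Alb, summed to 67809 to 90030 CPM.

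The genes around Lrat in the handling of retinoids were split by step. Of 16 genes of retinoid binding, uptake and ester turnover, 13 were tested, 2 above zero and 11 below (median -0.15). With edgeR 0 passed, and 1 had an unadjusted p under 0.05. Lipa, the lysosomal acid lipase gene, had 343, 253 and 292 CPM on normal chow and 178, 178 and 233 CPM on PS-MP chow, without overlap (log2 fold change -0.59, edgeR adjusted p = 0.805). Rbp4, the plasma retinol carrier gene, was 3208 ± 475 CPM on normal chow and 3113 ± 229 CPM on PS-MP chow (SD, n = 3).

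Of 29 genes of retinol oxidation, retinoic acid receptors and clearance, 26 were tested, 11 above zero and 15 below (median -0.08). With edgeR 0 passed, and 3 had an unadjusted p under 0.05. Rdh5, a retinol dehydrogenase gene, stood at 1.31, 1.66 and 2.67 CPM on normal chow and 3.70, 4.33 and 2.80 CPM on PS-MP chow (log2 fold change 0.94, edgeR adjusted p = 0.884). Rdh11, which encodes a retinal reductase, was 20.9 to 35.0 CPM on normal chow and 16.5 to 18.9 CPM on PS-MP chow (log2 fold change -0.61, edgeR adjusted p = 0.879). Cyp26b1, of retinoic acid clearance, was chosen after its values were seen and stood at 1.80, 2.41 and 1.45 CPM on normal chow and 4.02, 2.21 and 4.31 CPM on PS-MP chow, which overlap (log2 fold change 0.90, edgeR adjusted p = 0.904).

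Genes of stellate cell activation and matrix, 24 in number and all tested, had 13 values above zero and 11 below (median 0.01), and 0 passed with edgeR, also at an unadjusted p under 0.05. Fn1, the fibronectin gene, was the most abundant (761 ± 34.8 CPM on normal chow and 694 ± 56.8 CPM on PS-MP chow, SD, n = 3), and Ccn1, a matricellular gene, had the smallest p among those below zero (log2 fold change -0.66, edgeR adjusted p = 0.923). Of the 14 genes of latent TGF-beta, to which Ecm1 belongs by function, 13 were tested, 7 above zero and 6 below, with 0 called by edgeR and 1 at an unadjusted p under 0.05. Lrrc32, which encodes a membrane anchor of latent TGF-beta, stood at 8.001, 6.18 and 6.15 CPM on normal chow and 9.87, 10.3 and 9.38 CPM on PS-MP chow, without overlap (log2 fold change 0.54, edgeR adjusted p = 0.828). Over the 9 lists beside the 8 genes, 127 of 140 genes were tested, and 0 were called by edgeR, DESeq2 or limma-voom. With edgeR 7 (5.51%) had an unadjusted p under 0.05, near the 5.38% of all genes. The 7 include Cnn1, which passed the low-count filter only through the PS-MP libraries.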

How the data were processed

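The deposited files hold, by their values and names, unnormalised read counts per gene. Per the submitters' processing notes, bcl2fastq was used and the build was GRCm39; for the aligner, counter, annotation and strand setting, the sources used here give nothing. Per the labels' protocols, libraries were directional and built from poly(A)-selected RNA. Each file lists 56674 rows, and rows of the 67 repeated symbols were summed.

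Counts were analysed in R 4.3.3 with edgeR 4.0.16: filterByExpr by diet, TMM scaling, glmQLFit and glmQLFTest with diet as the one term, with Benjamini-Hochberg adjusted p across the tested genes and a threshold of 0.05. Intervals used 6.63 moderated degrees of freedom. Distances used log2 CPM with a prior count of 2. DESeq2 1.42.0, voom of limma 3.58.1, other scalings, filters, a replicate term and left-out libraries were alternatives. The fit was tested on simulated data for the diet comparison with known changes (17175 genes). It called 60 of 100 genes set to a 4-fold change, 6 of 100 set to 2-fold, and 10 of 16975 left alone. Those 10 false calls were a larger share of all calls than the threshold of 0.05 aims for. With no gene changed, 0 of 17214 were called. Changes were set only in genes with a mean above 1 CPM, so lower genes such as Cnn1 and Actg2 are not covered.

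The 8 genes and the lists were chosen with earlier results of these data known. Named were all 8 genes; of each list, the smallest p in each direction and the 2 most abundant; near copies of the 8; and the 5 genes nearest to Acta2 and Lrat. Not all are printed, and 1 gene of the lists is not reported here. RefSeq promoters and GENCODE M21 are of build GRCm38, used for sequence and transcript lengths only.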

Additional observations from a re-analysis of the deposited data

How the results depend on the processing

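None of the 8 genes and none of the 140 genes on the companion lists was called under any of 10 alternative settings or with any 1 of the 6 libraries left out. The number of genes called over the whole table, 2, was 187 with DESeq2, 1 with limma-voom and 0 with the replicate number as a block, and 0 to 4 with a library left out. Leaving out control replicate 2 gave 4, control replicate 3 gave 0, and either PS-MP replicate 1 or 3 gave 1. The labels do not say whether replicate numbers pair the libraries. Deviations of same-numbered libraries from their diet means correlated across genes with r of 0.11, 0.14 and -0.13. For differently numbered libraries r was -0.19 to 0.10, and values this small from so few libraries do not settle the question. With the replicate block the log2 fold change of Acta2 was 0.92.

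Scaling by library size alone moved the median of all genes up by 0.21 and that of the 8 genes from 0.01 to 0.21. There Tagln stood at 0.16, Vipr1 at 0.18 and Pdgfrb at 0.090, above zero, and the log2 ratio of the summed CPM was 0.18 in place of -0.02 (-0.13 to 0.14 with a library left out). Upper quartile scaling gave 0.0028 for Vipr1. With a library left out, the log2 fold change ranged from -0.12 to 0.30 for Ecm1, -0.018 to 0.25 for Des, -0.20 to 0.17 for Tagln, -0.12 to 0.12 for Vipr1 and -0.53 to 0.41 for Pdgfrb, so their signs changed. The median of the 8 genes ranged from -0.06 to 0.23. The cause was not tested. Lrat (0.21 to 0.69), Acta2 (0.84 to 1.57) and Reln (-0.46 to -0.19) kept their sign. Low counts limit Cnn1 and Actg2, which the 1 CPM filter removed.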

Other observations

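Rgs5, Colec10 and Hgf, stellate cell genes chosen after their values were seen, had control replicate 1 as their lowest library, as Lrat did. So did Rspo3 and Nes of the same list. More genes of that list went the other way. Control replicate 1 was the highest library for Colec11, Hand2, Lhx2, Gfap, Pdgfra, Angptl6, Adamtsl2, Pth1r and Sod3. Rgs5, a regulator of G protein signalling in mural cells, stood at 23.2, 56.1 and 38.8 CPM on normal chow and at 29.7, 51.9 and 32.1 CPM on PS-MP chow. Colec10, a collectin gene, had 21.3, 39.3 and 27.8 CPM on normal chow and 24.4, 39.9 and 25.4 CPM on PS-MP chow. Hgf, the hepatocyte growth factor gene, had 26, 110 and 123 counts on normal chow and 43, 294 and 153 counts on PS-MP chow. For Rgs5, Colec10 and Hgf the second replicate of the PS-MP diet was the highest PS-MP library. Tcf21, a transcription factor gene, and Bambi, a TGF-beta pseudoreceptor gene also chosen after its values were seen, were likewise highest in that PS-MP library, over a narrower range. Bambi lay between 2.80 and 3.20 CPM on normal chow and between 3.06 and 3.28 CPM on PS-MP chow. Tcf21 lay between 4.07 and 4.40 CPM and between 4.46 and 5.36 CPM, without overlap (edgeR adjusted p = 0.9998). Gfap, the other gene of that list without overlap, went the opposite way. It had 1.12, 0.805 and 0.652 CPM on normal chow and 0.631, 0.600 and 0.572 CPM on PS-MP chow. Its log2 fold change was -0.51 (edgeR adjusted p = 0.955). These were 2 of 21 genes, beside 11.2% of all genes tested whose diets did not overlap.

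Within the PS-MP diet, replicate 2 had Pdgfrb at 111 counts, beside 4814 counts of Reln and 19356 of Dcn. No explanation was tested.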
